A study of Mus musculus with 25 samples.

Results

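Complement components and regulators were followed in RNA bound to tagged ribosomes of mouse kidney podocytes, the epithelial cells on the outer face of the glomerular capillaries. The set was 9 genes: Masp1, C4b, C2, C3, Cfb, Cfd, C8a, Cfi and Cd55. A gene was read from the probe sets that carry its symbol alone in the array's annotation, and where it had several, from the one with the highest mean over all 25 arrays. Of the 9 genes, 7 had such a probe set, among 17097 genes in all. C3, the central component, and Cfd, the protease that cleaves factor B, had none in the annotation used and were not analysed here. Of the 7, 6 were among the 11968 genes bright enough to be tested, and Cfi lay below that limit.

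All mice were of the strain C57/129sv and carried the transgene Col1a1-eGFPL10a, in which a collagen1α1 promoter/enhancer drives the ribosomal protein L10a fused to eGFP, so that ribosomes of cells using that promoter can be pulled down with their transcripts (translating ribosome affinity purification, TRAP). The knock-in (KI) mice also carried the allele Actn4 tm1.1Plk, a targeted change of the gene for the actin crosslinker alpha-actinin-4, and the wild-type (WT) mice did not. The number of mutant copies in KI mice, 1 or 2, is not given. There were 4 KI and 4 WT arrays at 2 weeks (stage P14), 4 KI and 5 WT arrays at 5 weeks (P35), and 4 KI and 4 WT arrays at 44 weeks (P300). The labels give sex as unknown, and nothing in them ties an array to an animal of its own, so the p-values measure only how far these samples spread, which may be technical.

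Complement is a cascade of plasma proteins that marks surfaces for uptake and can end in a pore through the membrane. The classical and lectin pathways cleave C4 and C2 to build an enzyme that cleaves C3, the alternative pathway builds its own from C3 and factor B, and both lead to the terminal components C5 to C9, while membrane-bound and soluble regulators take these enzymes apart. The glomerular filter is a frequent site of complement deposition in kidney disease, podocytes carry regulators on their surface, and tubule cells are known to make several components themselves.

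Values are log2 signals, and a difference of 1 is a factor of 2. Podocyte markers were bright in every group (group means of 17 listed genes from 10.49 to 11.07), but so were proximal tubule markers (19 genes, 9.40 to 10.50), so the RNA held transcripts of other kidney cells. In such bulk samples fewer cells of a type and less RNA per cell cannot be told apart. The mean of 3 Y-linked genes lay above 5.5 in 1 of 4 KI and 4 of 4 WT arrays at 2 weeks, in 3 of 4 KI and 2 of 5 WT arrays at 5 weeks, and in 3 of 4 KI and 1 of 4 WT arrays at 44 weeks. Sex was thus balanced neither between genotypes nor, within each genotype, across the ages. Actn4 itself was not analysed here. The array medians differed by at most 0.17. Precision is set by the 4 or 5 arrays of a group.

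The promoters of Cd55 and C8a are shown because both members rose between 2 and 5 weeks in both genotypes and because they are the members with an entry in the promoter table. Each run is the 250 bases before the start site, 5′ to 3′ on the gene's strand, from RefSeq on GRCm38.p6. Both genes lie on the minus strand, Cd55 at chr1:130462745-130462994 and C8a at chr4:104876399-104876648.
Cd55: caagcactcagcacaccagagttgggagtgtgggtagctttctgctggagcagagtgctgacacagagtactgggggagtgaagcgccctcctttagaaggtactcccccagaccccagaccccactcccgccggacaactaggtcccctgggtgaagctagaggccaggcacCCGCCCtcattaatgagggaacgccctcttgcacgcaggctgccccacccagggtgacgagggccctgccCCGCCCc
C8a: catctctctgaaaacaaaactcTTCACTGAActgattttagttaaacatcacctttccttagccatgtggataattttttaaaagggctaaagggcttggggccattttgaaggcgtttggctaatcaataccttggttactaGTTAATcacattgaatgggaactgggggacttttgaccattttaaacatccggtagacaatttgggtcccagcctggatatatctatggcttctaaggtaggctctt
In Cd55 the capitals mark 2 GC boxes (CCGCCC, the core of a binding site of Sp1-type factors), which begin 77 and 7 bases before the start. In C8a they mark a match to the STAT pattern TTCNNNGAA, 228 bases before the start, and an HNF1 half-site (GTTAAT), 107 bases before it. On both strands of the same 250 bases of 32851 promoters, 32.7% held the GC box, 7.02% the STAT pattern and 6.43% the HNF1 half-site, and no marked motif overlaps another. The C/EBP pattern TTGCNNAA (9.56% of promoters) and the TATA box TATAAA (12.4%) had no match in either window. The motifs were chosen with these sequences in view. A match is a stretch of letters and not a shown binding site. Of the 7 genes, 2 matched an entry of that table, and C4b, C2, Cfb, Masp1 and Cfi did not.

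**Figure D1:**
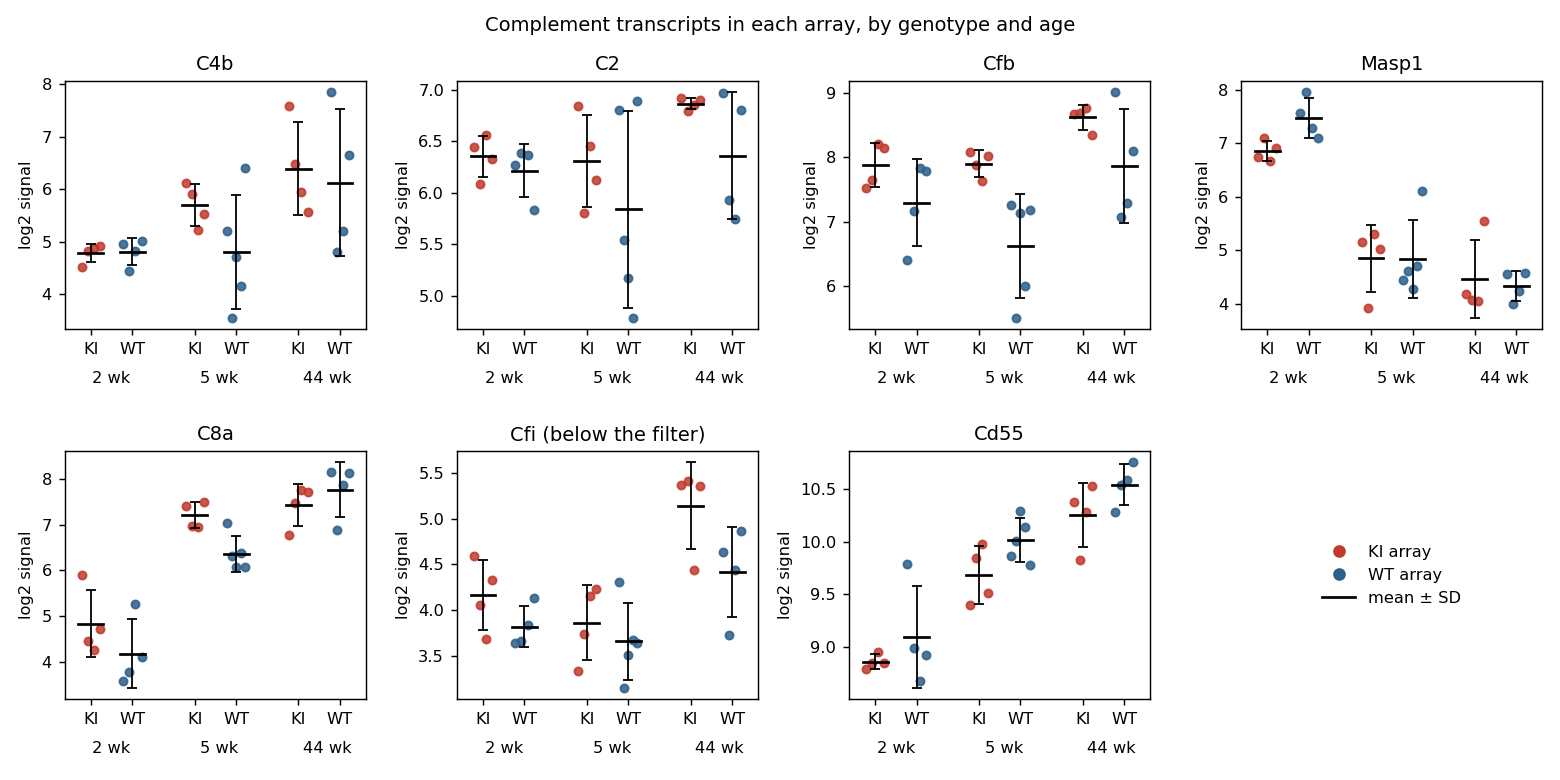
Log2 signal (vertical axis) of the 7 measured complement genes in each of 25 arrays, by genotype and age. Points are arrays and bars the mean ± SD of a group. Masp1 is at 6.67 or more in all arrays at 2 weeks and at 6.10 or less later, C8a is at 5.90 or less at 2 weeks and at 6.07 or more later, and Cfb is higher in KI than in WT arrays at 5 weeks without overlap.

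Between 2 and 5 weeks Masp1 fell while C8a and Cd55 rose, in both genotypes. Between 5 and 44 weeks Cd55 rose further in both genotypes, by calls at the threshold, and C8a and Cfb rose in WT. Between genotypes Cfb was called, higher in KI, at 5 weeks and in the average over the 3 ages, and no member was called at 2 or at 44 weeks. Over all genes 14.3% were called higher in KI at 5 weeks and 3.99% in the average. Calls are limma's moderated test at a Benjamini-Hochberg adjusted p under 0.05 over all 11968 genes.

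Masp1 encodes a serine protease that starts the lectin pathway, and its transcript was brightest in the youngest mice. Its log2 signal in order of array number was 6.75, 7.10, 6.67 and 6.91 in KI and 7.56, 7.95, 7.28 and 7.11 in WT mice at 2 weeks. At 5 weeks it was 5.16, 3.92, 5.30 and 5.02 in KI and 4.44, 4.62, 4.29, 4.71 and 6.10 in WT mice. At 44 weeks it was 4.19, 4.07, 4.05 and 5.54 in KI and 4.56, 4.00, 4.24 and 4.58 in WT mice. Every array at 2 weeks was thus above every later array, and the groups at 5 and 44 weeks overlapped.

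In KI mice Masp1 averaged 4.85 ± 0.63 at 5 weeks and 6.86 ± 0.19 at 2 weeks (SD, n = 4 each). That is a fall of 4.02-fold, with a log2 difference of -2.01 ± 0.36 (SE, limma adjusted p = 0.00107). In WT mice it averaged 4.83 ± 0.73 at 5 weeks (n = 5) and 7.48 ± 0.37 at 2 weeks (n = 4), a fall of 6.25-fold with a log2 difference of -2.64 ± 0.34 (limma adjusted p = 1.96e-05). From 5 to 44 weeks the differences were -0.38 ± 0.36 in KI and -0.49 ± 0.34 in WT mice, neither of them called. At 2 weeks the 4 KI arrays lay below the 4 WT arrays without overlap, as 1.74% of all genes did, and the difference of -0.62 ± 0.36 was not called (limma adjusted p = 0.893).

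Of the other 4 Masp1 probe sets, 2 also fell, by smaller amounts. Their log2 differences of 5 minus 2 weeks were -1.39 and -0.64 in KI (adjusted p = 0.0184 and 0.0251) and -2.44 and -1.17 in WT mice (adjusted p = 6.47e-05 and 7.24e-05). With the mean of all 5 probe sets the Masp1 difference was -0.88 in KI and -1.29 in WT mice, still called in both. The remaining pair, with means of 4.09 and 3.09 over all arrays, changed by -0.35 and 0.01 in KI and by -0.10 and -0.09 in WT mice, none of them called, and the dimmer one lay among the nonspecific control probe sets, whose means ran from 2.20 to 3.47. The Masp1 gene gives several proteins by splicing, and which transcripts each probe set reads was not tested. Markers of 2 other kidney cell groups also fell between 2 and 5 weeks. For mesangial and smooth muscle cells the mean was 8.24 in KI at 5 weeks and 8.52 in KI at 2 weeks, and 7.52 in WT at 5 weeks and 8.50 in WT at 2 weeks. Of the 12 tested, 5 fell in KI and 10 in WT mice, and the others did not pass. Over all genes 8.29% fell in KI and 21.7% in WT mice. For the parietal epithelium the mean was 7.66 in KI at 5 weeks and 8.36 in KI at 2 weeks, and 7.24 in WT at 5 weeks and 8.05 in WT at 2 weeks, with 4 of 11 markers lower in KI and 7 of 11 in WT mice. Between genotypes the mesangial means lay farthest apart at 5 weeks, where Masp1 averaged 4.85 in KI and 4.83 in WT. The Masp1 means lay farthest apart at 2 weeks (6.86 in KI and 7.48 in WT). From 5 to 44 weeks 4 of the 12 mesangial markers fell in KI and 2 in WT mice. At that step 3 of 11 parietal markers rose in WT mice. Over all genes 16.8% were called there in KI and 20.1% in WT mice. The part of the parietal markers in the Masp1 values was not tested. With the mesangial mean as a covariate, chosen after both were seen, the Masp1 difference was -1.85 in KI (adjusted p = 0.002) and -2.11 in WT mice (adjusted p = 0.0152).

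C8a encodes the alpha chain of C8, part of the pore-forming membrane attack complex, and showed the opposite course. Its log2 signal was 5.90, 4.47, 4.27 and 4.73 in KI and 3.59, 3.80, 5.26 and 4.11 in WT mice at 2 weeks. At 5 weeks it was 7.40, 6.96, 6.96 and 7.48 in KI and 7.02, 6.31, 6.07, 6.38 and 6.07 in WT mice. At 44 weeks it was 6.77, 7.47, 7.74 and 7.71 in KI and 8.15, 6.88, 7.87 and 8.12 in WT mice. All arrays at 2 weeks lay below all later ones, and in 1 of 25 arrays, a WT array at 2 weeks, C8a did not exceed every nonspecific control.

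The rise of C8a between 2 and 5 weeks was 5.12-fold in KI mice, to 7.20 ± 0.28 at 5 weeks, against 4.84 ± 0.73 at 2 weeks (log2 difference 2.36 ± 0.37, limma adjusted p = 0.000323). In WT mice it was 4.53-fold, to 6.37 ± 0.39 at 5 weeks, against 4.19 ± 0.74 at 2 weeks (2.18 ± 0.35, limma adjusted p = 0.000117). From 5 to 44 weeks C8a rose again in WT mice, by 2.61-fold (1.38 ± 0.35, limma adjusted p = 0.00893). Beside it 8 of 23 markers of the loop, distal tubule and collecting duct and 5 of 15 leukocyte markers rose. Over all genes 11.3% rose. The C8a call ended with the tubule covariate (0.93, adjusted p = 0.114), the leukocyte covariate (0.89, adjusted p = 0.162) and without WT arrays 7, 8 and 9 (1.21, adjusted p = 0.129). The calls over all genes went from 2408 to 1238, 977 and 851 in these settings. In KI mice the same step of C8a gave 0.22 ± 0.37 and was not called. At 5 weeks KI minus WT was 0.83 ± 0.35 for C8a, with an unadjusted p of 0.0264 that did not pass the adjustment over all genes (adjusted p = 0.0882). At 44 weeks the difference was -0.33 ± 0.37, and the change of the genotype difference between these ages, -1.16 ± 0.51, was not called either (adjusted p = 0.214).

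Cd55 encodes decay-accelerating factor, the membrane-anchored regulator that dissociates the C3-cleaving enzymes, and climbed at each step of age. Its log2 signal was 8.79, 8.85, 8.96 and 8.85 in KI and 9.79, 9.00, 8.68 and 8.92 in WT mice at 2 weeks. At 5 weeks it was 9.40, 9.84, 9.98 and 9.51 in KI and 9.86, 10.01, 10.29, 10.14 and 9.78 in WT mice. At 44 weeks it was 10.37, 9.82, 10.28 and 10.53 in KI and 10.28, 10.54, 10.59 and 10.75 in WT mice. WT array 1 at 2 weeks reached the level of the 5-week arrays, and apart from it the arrays at 2 weeks lay below all those at 5 weeks.

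Between 2 and 5 weeks Cd55 rose by 1.77-fold in KI (log2 difference 0.82 ± 0.19, limma adjusted p = 0.00715) and by 1.89-fold in WT mice (0.92 ± 0.18, limma adjusted p = 0.000761). Between 5 and 44 weeks it rose by 1.48-fold in KI (0.57 ± 0.19, limma adjusted p = 0.0478) and by 1.44-fold in WT mice (0.53 ± 0.18, limma adjusted p = 0.0468). Both later calls lay at the threshold: leaving out 1 array ended the call in 6 of 8 cases in KI (0.47 to 0.71) and in 7 of 9 in WT mice (0.45 to 0.61). Both also ended after quantile normalization or centring, without the filter, with only the arrays compared and with the mesangial covariate. The WT call ended as well with the mean of all probe sets, with the leukocyte or Y-linked covariate, and without WT arrays 7, 8 and 9. On the 2 other Cd55 probe sets the step from 2 to 5 weeks was 0.59 and 0.65 in KI (adjusted p = 0.0464 and 0.0493) and 0.91 and 0.44 in WT mice (adjusted p = 0.000795 and 0.111). Their step from 5 to 44 weeks was 0.78 and 0.61 in KI (adjusted p = 0.00928 and 0.0589) and 0.47 and 0.42 in WT mice (adjusted p = 0.0728 and 0.157). These probe sets had means of 8.89 and 8.57 in KI at 44 weeks and 7.52 and 7.31 in KI at 2 weeks, and of 8.93 and 8.73 in WT at 44 weeks and 7.55 and 7.87 in WT at 2 weeks. A probe set of Cd55 could also read its close copy Cd55b, which has a probe set of its own with a mean of 3.34.

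The KI mean of Cd55 was below the WT mean at every age, with differences of -0.24 ± 0.19 at 2 weeks, -0.33 ± 0.18 at 5 weeks and -0.29 ± 0.19 at 44 weeks. None of these was called, and the average of -0.29 ± 0.11, with an unadjusted p of 0.0165, did not pass either (limma adjusted p = 0.111). The mean of the podocyte markers was likewise lower in KI at each age, with 10.49 for KI against 10.68 for WT at 2 weeks, 10.86 for KI against 10.98 for WT at 5 weeks, and 10.90 for KI against 11.07 for WT at 44 weeks. Of the 17 tested, 5 were lower and 2 higher in KI at 5 weeks, where 22% of all genes were called. With age, 7 rose in KI and 11 rose and 1 fell in WT mice between 2 and 5 weeks, where 5.4% and 12.2% of all genes rose. Between 5 and 44 weeks 0 were called in KI mice, where 16.8% of all genes were. In WT mice 3 rose and 2 fell at that step, where 20.1% of all genes were called. The median difference of these markers was then 0.02 in KI and -0.01 in WT mice. Their part in the Cd55 values was not tested.

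**Figure D2:**
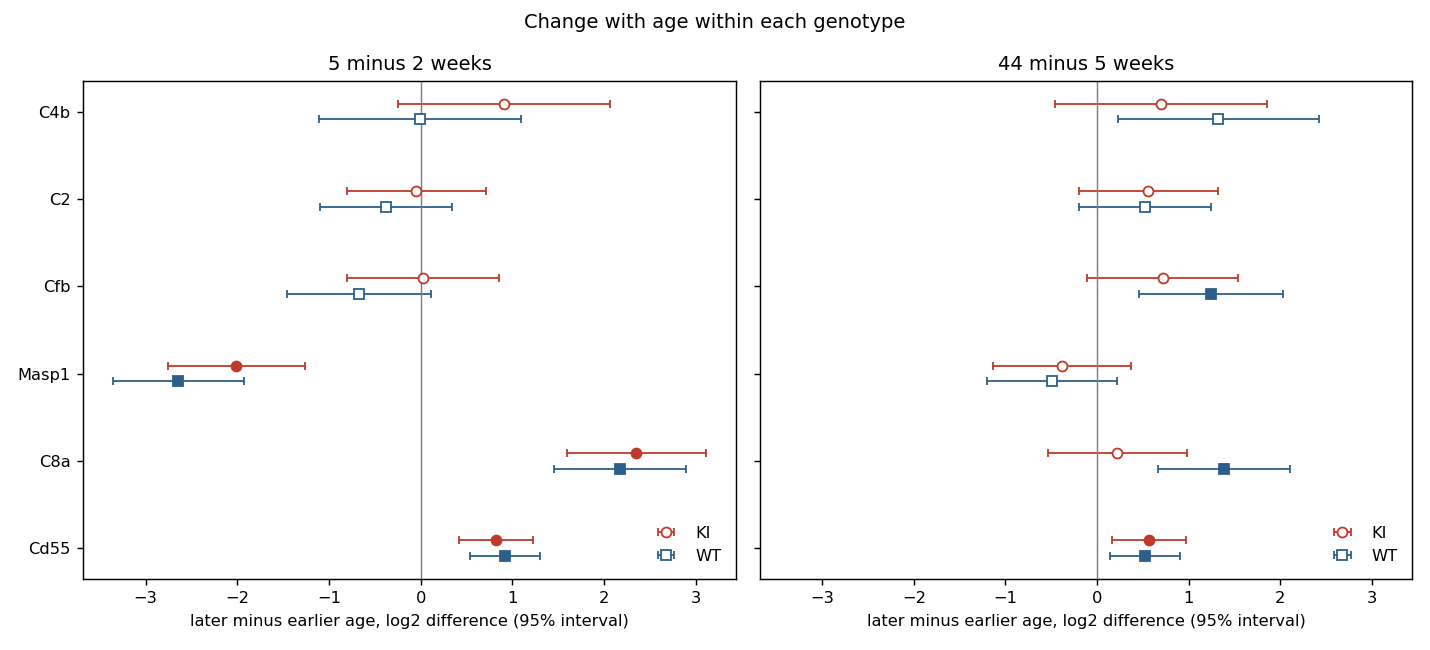
Difference between ages (horizontal axis, later minus earlier, log2) of the 6 tested complement genes, with 95% intervals, 5 minus 2 weeks on the left and 44 minus 5 weeks on the right. KI is drawn above WT for each gene and filled symbols passed the limma test. Masp1 (-2.01 in KI and -2.64 in WT) and C8a (2.36 and 2.18) lie farthest from 0 on the left.

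Counted over the set, between 2 and 5 weeks 2 members rose and 1 fell of 6 in KI mice, where 13.7% of all genes were called, 5.4% up and 8.29% down. In WT mice the count was the same, 2 up and 1 down, where 33.9% of all genes were called, 12.2% up and 21.7% down. The arrays of the ages did not overlap for 4 of 6 members in KI (C4b, Masp1, C8a and Cd55), against 25.2% of all genes, and for 2 of 6 in WT mice (Masp1 and C8a), against 16.7%. The median log2 difference of the 6 was 0.42 in KI, against 0.02 over all genes, and -0.19 in WT, against -0.06 over all genes. Between 5 and 44 weeks 1 of 6 members rose in KI, where 16.8% of all genes were called and 8.11% rose. In WT mice 3 of 6 rose, where 20.1% of all genes were called and 11.3% rose. The medians of the 6 were 0.56 in KI, against -0.01 over all genes, and 0.88 in WT, against 0.05 over all genes. The 2 age steps of a genotype share the 5-week arrays.

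Cfb encodes factor B, which supplies the protease of the alternative pathway's C3-cleaving enzyme, and was the only member called between genotypes. At 5 weeks 14.3% of all genes were called higher in KI, and in the average over the ages 3.99% were. The log2 signal of Cfb was 7.52, 7.64, 8.20 and 8.14 in KI and 6.40, 7.17, 7.84 and 7.78 in WT mice at 2 weeks. At 5 weeks it was 8.09, 7.88, 7.63 and 8.01 in KI and 7.27, 5.52, 7.14, 6.01 and 7.18 in WT mice. At 44 weeks it was 8.67, 8.69, 8.76 and 8.34 in KI and 9.00, 7.07, 7.29 and 8.10 in WT mice. Only at 5 weeks did the KI arrays all lie above the WT arrays, as they did for 7.09% of all genes. WT arrays 7 and 9 were the lowest of all 25, and WT array 15 at 44 weeks the highest.

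At 5 weeks Cfb averaged 7.90 ± 0.20 in KI (n = 4) and 6.62 ± 0.81 in WT mice (n = 5), 2.42-fold higher in KI (log2 difference 1.28 ± 0.38, limma adjusted p = 0.0215). The difference was 0.58 ± 0.40 at 2 weeks and 0.75 ± 0.40 at 44 weeks, neither of them called. Averaged over the ages it was 0.87 ± 0.23, or 1.82-fold (limma adjusted p = 0.0338). The change of the difference between ages was not called (0.70 ± 0.55 from 2 to 5 weeks and -0.53 ± 0.55 from 5 to 44 weeks). Within WT mice Cfb rose by 2.37-fold between 5 and 44 weeks (1.24 ± 0.38, limma adjusted p = 0.025). That call ended with only the arrays compared (adjusted p = 0.142), with the tubule covariate (0.44, adjusted p = 0.379), with the leukocyte covariate (0.73, adjusted p = 0.301) and without WT arrays 7, 8 and 9 (0.64, adjusted p = 0.373). Over all genes the calls at this step went from 2408 to 567, 1238, 977 and 851 in these settings. In KI mice the arrays at 44 weeks lay above those at 5 weeks without overlap, as 12.5% of all genes did, with a difference of 0.71 ± 0.40 that was not called.

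The 5-week call ended without WT array 7 (1.00, adjusted p = 0.0715), WT array 9 (1.12, 0.0617), KI array 23 (1.21, 0.0595) or KI array 26 (1.24, 0.0507), and the difference was 0.68 without WT arrays 7, 8 and 9 together (adjusted p = 0.515). With 1 array left out, the 5-week calls over all genes ran from 1386 to 4077, against 2638 with all arrays. Markers of other kidney cells moved with Cfb. The 19 proximal tubule markers averaged 10.33 in KI arrays at 5 weeks (10.05 to 10.53) and 9.58 in WT arrays (9.02 to 10.15), and 4 of the 19 were called, each higher in KI. Higher in KI were also 8 of 23 markers of the loop, distal tubule and collecting duct, 8 of 17 endothelial, 5 of 15 leukocyte, 5 of 12 mesangial and 4 of 11 parietal markers, with 1 parietal marker lower. Over all genes 14.3% were called higher in KI. WT arrays 7 and 9 had the lowest tubule means of that group, 9.02 and 9.22, and WT array 15 the highest of all arrays, 10.87. With the mean of all tubule markers (proximal, loop, distal and collecting duct) as a covariate the Cfb difference at 5 weeks was 0.33 (adjusted p = 0.666), with the leukocyte markers 0.86 (adjusted p = 0.21) and with the mesangial markers 0.60 (adjusted p = 0.574). Most genes lost their call in these fits. Over all genes the calls at 5 weeks went from 2638 to 37, 540 and 10, and to 1 without WT arrays 7, 8 and 9. The Cfb average over the ages was 0.19 with the tubule covariate (adjusted p = 0.991), where 4 genes in all were called, against 637 without it. The actin 3′ minus 5′ signal, a sign of RNA quality, ran from 0.99 to 1.33 in KI and from 1.47 to 1.63 in WT arrays at 5 weeks without overlap, while that of Gapdh averaged 1.48 in KI and 1.22 in WT arrays. For actin, WT arrays at 5 weeks also lay above WT arrays at 2 weeks (1.07 to 1.30) and 44 weeks (0.78 to 1.24). For Gapdh these WT ages overlapped. At 2 weeks Gapdh ran from 1.06 to 1.45 in KI and from 1.55 to 1.84 in WT arrays, while actin overlapped. The part of RNA quality in the Cfb difference, and in the age steps and 2-week differences of the members, was not tested.

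**Figure D3:**
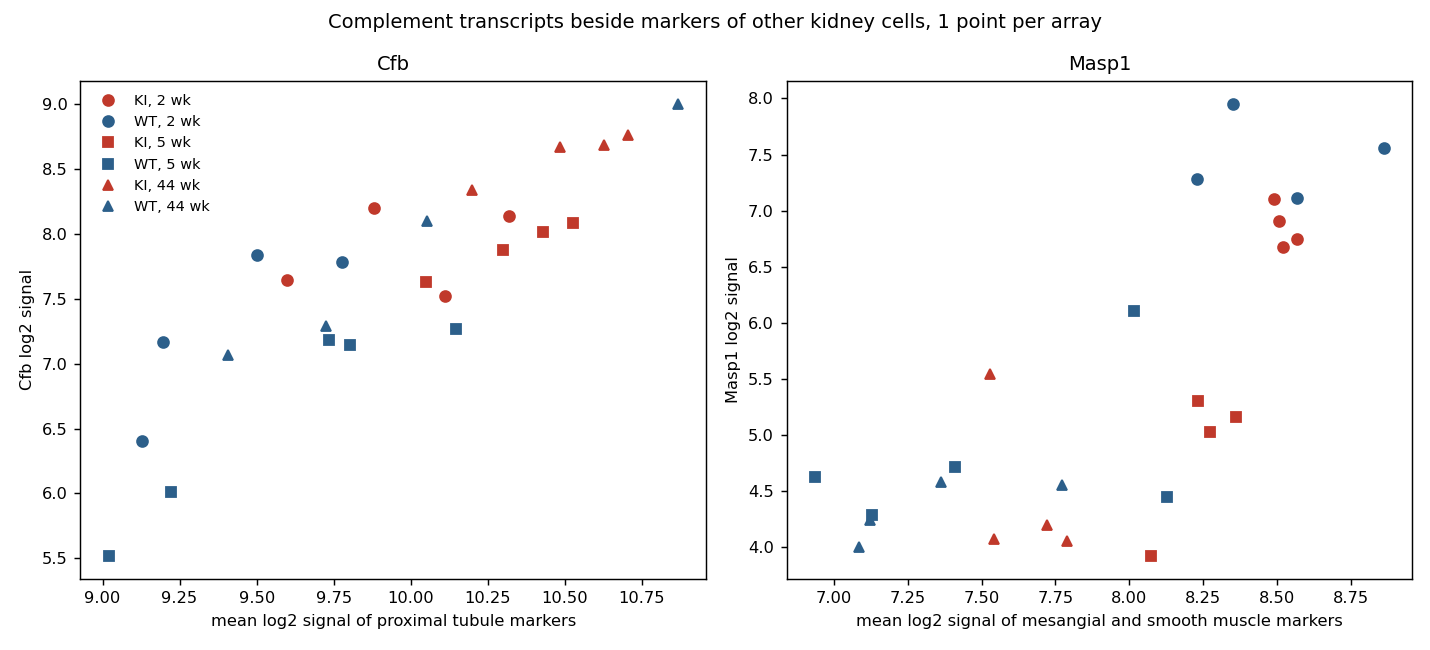
On the left, Cfb log2 signal (vertical axis) against the mean log2 signal of 19 proximal tubule markers (horizontal axis); on the right, Masp1 against the mean of 12 mesangial and smooth muscle markers. Each point is 1 of 25 arrays, colours give the genotype and shapes the age. Cfb is lowest in the 2 WT arrays at 5 weeks with tubule means of 9.02 and 9.22, and the arrays at 2 weeks have the highest Masp1, from 6.67 to 7.95.

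C4b and C2 encode the components that the classical and lectin pathways join into their C3-cleaving enzyme, C2 being its protease. C4b had a log2 signal of 4.52, 4.82, 4.87 and 4.91 in KI and 4.96, 4.44, 4.82 and 5.02 in WT mice at 2 weeks. At 5 weeks it was 6.11, 5.91, 5.23 and 5.53 in KI and 5.20, 3.55, 4.70, 4.15 and 6.40 in WT mice. At 44 weeks it was 7.59, 6.47, 5.94 and 5.56 in KI and 7.84, 4.81, 5.20 and 6.65 in WT mice. The KI arrays at 5 weeks all lay above those at 2 weeks, and the WT arrays of the later ages were spread widely, with an SD of 1.09 at 5 weeks and 1.39 at 44 weeks.

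No difference of C4b was called. The largest was that of WT mice at 44 against 5 weeks, 1.32 ± 0.53, with an unadjusted p of 0.0206 (limma adjusted p = 0.0808), and it passed with WT array 10 (1.72, adjusted p = 0.0157) or WT array 16 left out (1.76, 0.0289), with array weights (1.60, 0.00674) and with the Y-linked (adjusted p = 0.034) or mesangial covariate (1.69, adjusted p = 0.00508). It was 0.75 without WT array 15 (adjusted p = 0.329), 0.30 with the tubule covariate (adjusted p = 0.73), 0.39 with the leukocyte covariate (adjusted p = 0.707) and 0.32 without WT arrays 7, 8 and 9 (adjusted p = 0.797). In KI mice the differences were 0.91 ± 0.56 for 5 minus 2 weeks and 0.70 ± 0.56 for 44 minus 5 weeks. The difference of KI from WT mice was 0.89 ± 0.53 at 5 weeks (95% interval -0.21 to 1.99). The C4b probe set could also read its close copy C4a, for which no probe set was named.

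C2 ranged from 5.80 to 6.92 over the KI arrays and from 4.79 to 6.97 over the WT arrays. At 44 weeks the KI arrays stood at 6.92, 6.79, 6.85 and 6.91, a mean of 6.87 ± 0.06, and the WT arrays at 6.97, 5.93, 5.74 and 6.81, a mean of 6.36 ± 0.61. At 5 weeks the KI arrays stood at 6.84, 5.80, 6.46 and 6.13 and the WT arrays at 6.81, 5.54, 5.17, 4.79 and 6.89. The groups overlapped at each age. KI minus WT was 0.14 ± 0.37 at 2 weeks, 0.47 ± 0.35 at 5 weeks and 0.50 ± 0.37 at 44 weeks, none of them called, and no age step of C2 was called. C2, Cfb and C4b all lie on chromosome 17.

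Cfi encodes factor I, the protease that cuts activated C3 and C4 with the help of cofactors. Its mean of 4.16 over all arrays was under the limit of 4.60 for testing, and in 22 of 25 arrays it exceeded every nonspecific control. The highest group mean was that of the oldest KI mice, with values of 5.37, 5.41, 4.43 and 5.35, against 4.63, 3.73, 4.44 and 4.87 in WT mice at 44 weeks. At 2 weeks the values were 4.59, 4.06, 3.69 and 4.33 in KI and 3.64, 3.66, 3.84 and 4.13 in WT mice. The KI arrays at 2 and 44 weeks thus overlapped in their values. At 5 weeks they were 3.34, 3.74, 4.15 and 4.23 in KI and 4.31, 3.15, 3.51, 3.67 and 3.64 in WT mice. The KI arrays at 44 weeks lay above those at 5 weeks without overlap, as 12.5% of the 11968 tested genes did. When the limit was dropped, this step of Cfi passed in KI mice at 1.28 ± 0.27 (limma adjusted p = 0.00464), where 2194 of 17097 genes were called. The WT step of 0.76 ± 0.26 did not pass (adjusted p = 0.0513). KI minus WT at 44 weeks was then 0.72 ± 0.27, with an unadjusted p of 0.0151 and an adjusted p of 0.70.

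**Figure D4:**
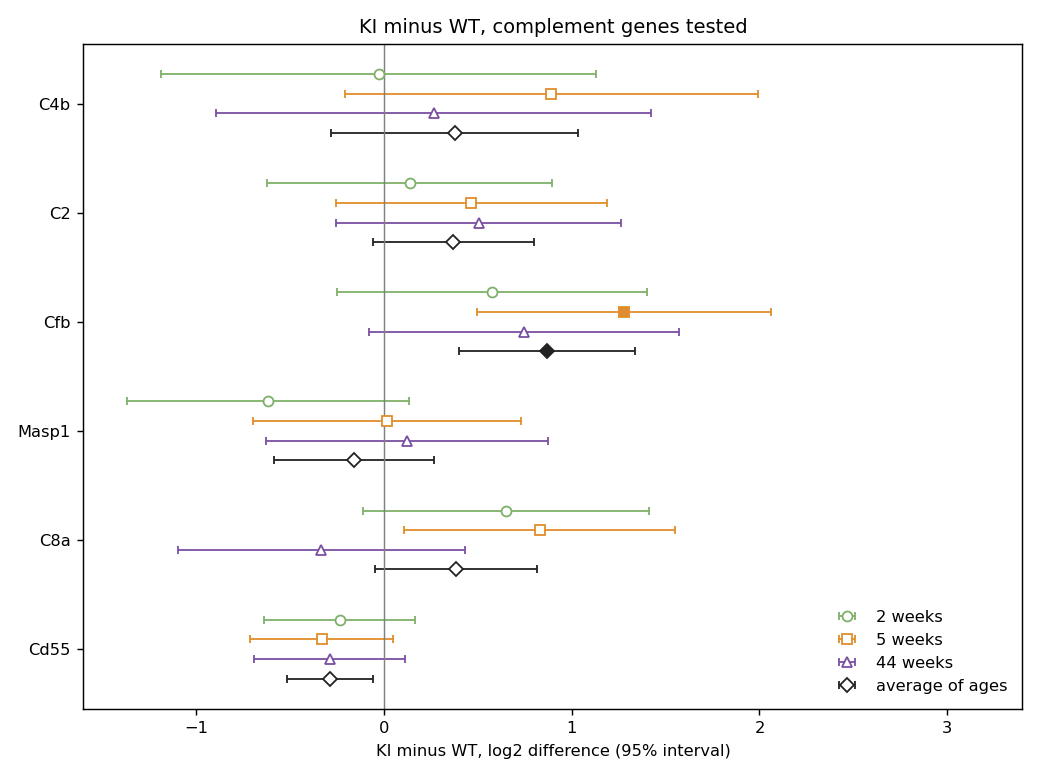
KI minus WT difference (horizontal axis, log2) of the 6 tested complement genes at 2, 5 and 44 weeks and averaged over the ages, with 95% intervals. Filled symbols passed the limma test. Cfb is filled at 5 weeks (1.28) and in the average (0.87), and the Cd55 estimates lie between -0.33 and -0.24.

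Counted over the set, 1 of 6 members was higher in KI at 5 weeks, where 22% of all genes were called and 14.3% were higher, and 2 had an unadjusted p under 0.05 (Cfb and C8a), as 37.3% of all genes did. The median difference of the 6 was 0.65, against 0.06 over all genes. In the average over ages 1 of 6 was higher in KI, where 5.32% of all genes were called and 3.99% were higher. At 2 weeks limma called 0 of 6 members and 0% of all genes, with 0 members at an unadjusted p under 0.05, against 5.12% of all genes. At 44 weeks it called 0 of 6 members and 0.0251% of all genes, again with 0 members at an unadjusted p under 0.05, against 6.37% of all genes. The difference of the genotype effect between ages was called for 0 of 6 members in any of the 3 contrasts, with 1 unadjusted p under 0.05, that of C8a between 5 and 44 weeks, as for 19.5% of all genes in that contrast. Over all genes 0.0251% were called for 5 against 2 weeks and 0% for each of the other contrasts.

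Ordered by group mean, most neighbouring groups overlapped. For C8a the order ran from WT at 2 weeks (4.19) over KI at 2 weeks (4.84), WT at 5 weeks (6.37), KI at 5 weeks (7.20) and KI at 44 weeks (7.42) to WT at 44 weeks (7.75), and only the step from KI at 2 weeks to WT at 5 weeks was free of overlap. For Masp1, KI at 2 weeks (6.86) and WT at 2 weeks (7.48) stood apart from each other and from all later groups, which ran from 4.34 to 4.85 and overlapped. For Cfb only KI at 44 weeks (8.62) stood free of the next group, KI at 5 weeks (7.90). For C4b only KI at 5 weeks (5.69) stood free of the group below it, WT at 2 weeks (4.81). For Cd55, C2 and Cfi every group overlapped with the next.

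The genes most like each member were ranked by Pearson's r of log2 signals over the 25 arrays, which also share genotype, age and cell makeup. Masp1 was most like Alx1 (r = 0.94), Smoc2 (0.94) and Adamts12 (0.94). C8a was most like Cyp2a5 (0.90), BC040756 (0.90) and Ngb (0.88), and Cd55 like Golim4 (0.96), Rsrc2 (0.95) and Lyrm9 (0.95). Cfb was most like Sdha, a subunit of succinate dehydrogenase (0.93), Pcca, a subunit of propionyl-CoA carboxylase (0.93), and Nit1 (0.93). C4b was most like Cep250 (0.86), Slc6a8 (0.83) and Huwe1 (0.82), and C2 like Polrmt (0.80), Pgap6 (0.76) and Renbp (0.75). Taken around the group means, the r with these genes, in the order named, was 0.86, 0.90 and 0.85 for Cfb. It was 0.81, 0.69 and 0.68 for C4b, 0.76, 0.65 and 0.73 for C2, and 0.80, 0.62 and 0.71 for Cd55. For Masp1 it was 0.61, 0.63 and 0.56, and for C8a 0.38, 0.42 and -0.25.

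Of 46 further complement genes, 37 had a named probe set and 15 passed the brightness limit. At 5 weeks 4 of the 15 were higher in KI and 1 lower, where 22% of all genes were called and 14.3% were higher. The 4 by smallest p were Cd59a, the membrane inhibitor of the attack complex, at -0.33 ± 0.10 (limma adjusted p = 0.0224), C1qb, a chain of the classical recognition molecule, at 0.73 ± 0.23 (0.0289), Cfp or properdin, which stabilises the alternative enzyme, at 0.42 ± 0.14 (0.0372), and C8g, the gamma chain of C8, at 0.84 ± 0.29 (0.0385). The fifth was C1qa at 0.83 ± 0.29 (0.0441), named after its value was seen. In the average over ages Cfp was the 1 of 15 called, at 0.31 ± 0.08 (adjusted p = 0.0384), where 3.99% of all genes were higher in KI. These calls lay near the threshold, and leaving out 1 array of the 2 groups ended them in 4 to 8 of 9 cases for the 5 genes at 5 weeks. Without WT arrays 7, 8 and 9 none of the 5 was called, and over all genes 1 was, against 2638 with them.

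With age, Serping1, which encodes the C1 inhibitor, fell at 2 steps in WT mice, by 2.05-fold from 2 to 5 weeks (-1.03 ± 0.22, limma adjusted p = 0.00152) and by 1.63-fold from 5 to 44 weeks (-0.70 ± 0.22, adjusted p = 0.0315). In KI mice it fell by 2.09-fold from 5 to 44 weeks (-1.07 ± 0.24, limma adjusted p = 0.00462). Serping1 was the 1 of 15 called in WT mice from 5 to 44 weeks, where 20.1% of all genes were called. From 2 to 5 weeks in WT mice C1ra, a protease of the first component, at -1.08 ± 0.29 (0.00775), and Colec11, a lectin pathway collectin, at -0.91 ± 0.24 (0.00683), also fell, and Cd59a rose at 0.41 ± 0.10 (0.00345). That made 1 of 15 higher and 3 lower, where 12.2% of all genes rose and 21.7% fell. With the mesangial and smooth muscle markers as a covariate, none of these 4 WT differences passed (Serping1 -0.40, C1ra -0.04, Colec11 -0.34 and Cd59a 0.32). Over all genes the calls at this step went from 4053 to 948 with it. In KI mice the step from 2 to 5 weeks had 0 of 15 calls by limma, where 13.7% of all genes were called, with 3 unadjusted p under 0.05, against 27.6% of all genes, and the step from 5 to 44 weeks had Cr1l, the rodent C3-regulating protein Crry, higher at 0.49 ± 0.12 (adjusted p = 0.00955) beside Serping1. That made 1 of 15 higher and 1 lower at the later KI step, where 16.8% of all genes were called and 8.11% rose. At 2 and at 44 weeks limma called 0 of the 15 between genotypes, with 0 and 1 unadjusted p under 0.05, against 5.12% and 6.37% of all genes.

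**Figure D5:**
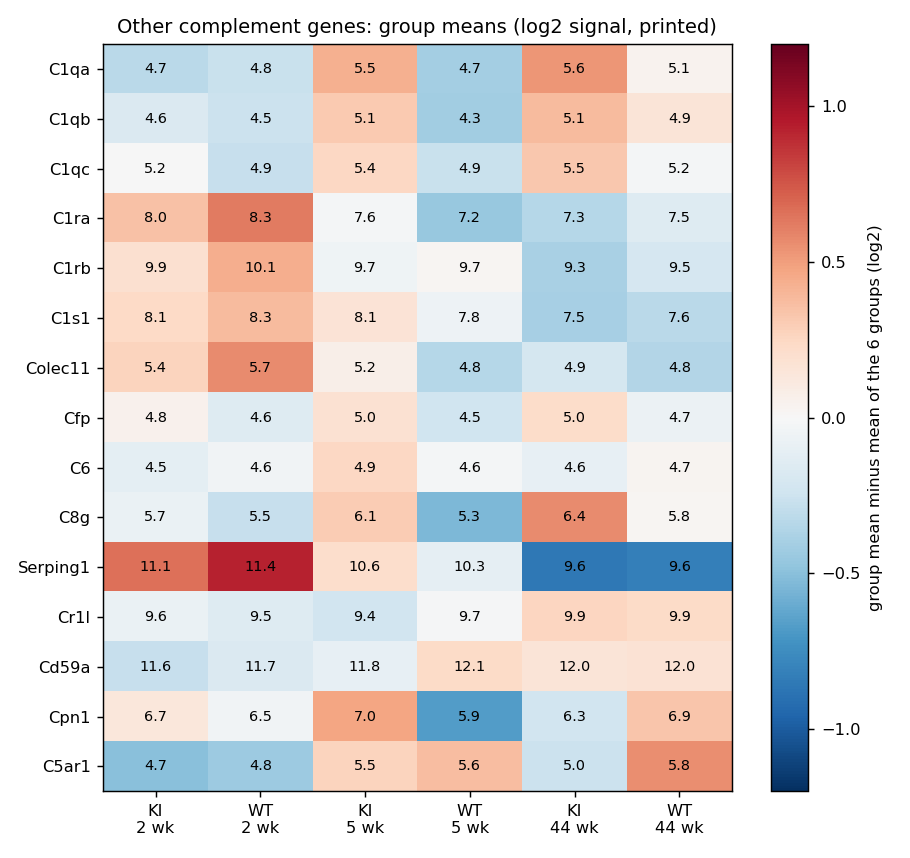
Group means (printed, log2 signal) of 15 further complement genes in the 6 groups, coloured by their distance from the mean of the 6 groups. Serping1 is highest at 2 weeks (11.09 in KI and 11.36 in WT) and lowest at 44 weeks (9.58 in KI and 9.62 in WT).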

How the data were processed

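Polysomal RNA purified from kidney podocytes by TRAP was amplified in 1 round with the NuGEN WT-Ovation kit and labelled with the Encore Biotin module, per the labels, and measured on 25 Affymetrix mouse arrays that carry only perfect-match probes, as the annotation's header names them. The authors deposited 1 log2 value per probe set and array; their summary and normalization method is not given in the labels. Array medians ran from 4.82 to 4.99. Of 45141 probe sets, 28898 carried 1 gene symbol, updated through Entrez identifiers (99.3% found). Per gene the probe set with the highest mean was kept, and the dimmest 30% of genes by mean were dropped (limit 4.60).

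limma 3.58.1 in R 4.3.3 was fitted to 6 group means over all 25 arrays (19 residual and 3.05 prior degrees of freedom), with Benjamini-Hochberg adjustment over 11968 genes and calls at an adjusted p under 0.05. The fit was tried on simulated data with independent noise for each gene. Those data lack variation shared between genes, so they check the code and not the calls reported here. The members and all lists (46 further complement genes, cell markers) were chosen with earlier results of these data known. Per comparison up to 4 further complement genes are named by p, and per member the 3 genes with the highest Pearson r over the arrays. Array numbers are those of the labels and pair no samples. Alternatives changed the scaling, the filter, the probe set, the prior, array weights, the arrays in the fit and marker covariates, or left out arrays; the mesangial covariate and all alternatives for further complement genes were added after seeing the data.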

Additional observations from a re-analysis of the deposited data

Results flagged for a closer look

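In each of the 42 groups formed by 7 members and 6 conditions the array farthest from the rest was compared with Dixon's limit, which chance exceeds in about 1 in 20 groups. It was exceeded in 3. Masp1 in WT array 10 at 5 weeks was 6.10, against 4.29 to 4.71 in the other 4 arrays of the group. Masp1 in KI array 34 at 44 weeks was 5.54, against 4.05 to 4.19 in the other 3 arrays. Cfi in KI array 33 at 44 weeks was 4.43, against 5.35 to 5.41 in the other 3. No change of the KI minus WT difference between ages was called for a member.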

How the results depend on the processing

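The number of members called kept within 1.5 times its value in 89 of 111 recomputations by alternative settings, and moved in 22. The kept cases include those of KI against WT at 2 and 44 weeks and of its change between ages. There 0 members were reported, and 0 to 3 of all genes per contrast, so few calls could be lost. A kept number can also hide a swap of members. With only the arrays compared, the call for KI at 44 against 5 weeks was Cfb and not Cd55. With the mesangial covariate, C4b was called in place of Cd55 for WT at 5 against 2 weeks. With array weights the number was 4 for KI against WT at 5 weeks (1 as reported), 3 in the average over ages (1), 5 for WT at 5 against 2 weeks (3) and 5 for WT at 44 against 5 weeks (3). Calls over all genes rose too with array weights, in the same order from 2638 to 4821, 637 to 3109, 4053 to 6092 and 2408 to 3762. For KI against WT at 5 weeks the number of members called was 0 with only the arrays compared, with the tubule, leukocyte or mesangial covariate, and without WT arrays 7, 8 and 9. In the average it was 0 with each of these covariates and without those arrays. Over all genes the calls at 5 weeks were 500, 37, 540, 10 and 1 in those settings, against 2638 as reported. In the average they went from 637 to between 4 and 9. With the 50% filter the number of members called was 1 for 5 against 2 weeks in KI and in WT mice, since Masp1 and C8a were then not tested. For WT at 44 against 5 weeks it was 1 with only the arrays compared or the tubule covariate, and 0 with the leukocyte covariate or without WT arrays 7, 8 and 9. For KI at 44 against 5 weeks it was 0 after quantile normalization or centring and 2 with the mesangial covariate (C2 and C4b). Without the filter the count of that step stayed 1, but the call was Cfi and not Cd55 (adjusted p = 0.0536). Apart from the filter, the cause was not tested.

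With 1 array left out, the number ran from 0 to 1 for KI against WT at 5 weeks, in the average and for KI at 44 against 5 weeks, from 1 to 3 for WT at 44 against 5 weeks, and was 3 throughout for 5 against 2 weeks in both genotypes and 0 throughout for KI against WT at 2 and 44 weeks and for its change between ages. Over all genes the calls then ran from 1386 to 4077 at 5 weeks (2638 as reported) and from 101 to 1828 in the average (637). For 44 against 5 weeks they ran from 1629 to 3103 in WT (2408) and from 1239 to 1663 in KI mice (2005). The average of Cfb (0.77 to 0.99) lost its call in 13 of 25 cases, those of WT arrays 1, 2, 9, 16, 17 and 18 and KI arrays 21, 22, 23, 24, 26, 31 and 33. Cfb in WT at 44 against 5 weeks lost it without array 7 (0.97), 9 (1.09), 15 (0.86) or 18 (1.17). Cd55 at 44 against 5 weeks lost it without WT array 6, 7, 9, 10, 16, 17 or 18, and without KI array 23, 24, 26, 31, 33 or 34. C8a in WT at 44 against 5 weeks kept its call in all 9 cases. The calls of Masp1, C8a and Cd55 at 5 against 2 weeks held with each array left out, and Cd55 in WT lost its own without WT arrays 7, 8 and 9 together (0.72, 0.0672), with the mesangial covariate (0.85, 0.0619) and on 1 other probe set (0.44, 0.111). For the dimmest Masp1 probe set the KI change between 2 and 5 weeks was 0.0106 (adjusted p = 0.959), opposite in sign to the reported one. Of the further complement genes, Serping1 in WT at 44 against 5 weeks lost its call in 5 of 9 cases (arrays 6, 9, 10, 15 and 17) and the average of Cfp in 14 of 25. No paired analysis was possible because the replicate numbers are array numbers that no 2 groups share. Signal over background limits Cfi, and C8a at 2 weeks.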
